A study of Rattus norvegicus with 8 samples.

Results

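A set of 6 genes was examined that had been singled out because their RNA was much more abundant in rat lung epithelial cells carrying an active form of the hypoxia factor HIF1a. They were Tmem255b, Tmem45a, Smtnl2, Rab26, Rcor2 and Serpinf1, 6 of the 18166 genes measured. Each was represented by a probe set whose platform annotation gave its symbol and no other. Of these, 5 had 1 such probe set, and for Rcor2 the brighter of 2 was taken. Since the genes were picked from the difference between the viruses in these same arrays, that difference is described below and not tested. Tests are given only for relatives, partner genes and chromosomal neighbours.

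The samples were primary alveolar epithelial type II (ATII) cells, which make surfactant and serve as the progenitors of the alveolar lining, from 4 male Sprague Dawley rats. One well of each rat received the control adenovirus AdGFP, which encodes green fluorescent protein, and another received AdHIF1a, which encodes a mutant HIF1a that is constitutively active, so each group held 4 arrays and the wells formed 4 pairs. Both groups were therefore virus-treated (multiplicity of infection 20, 3 h), plated on 80% collagen and 20% Matrigel with 5% rat serum, and harvested 24 h later, and no well without virus was analysed here. The use of 2% fetal bovine serum was also shared by all wells. Each rat had its own extraction day, so rat and day cannot be told apart, while a difference within a rat contains neither. The labels do not state the rats' age, the promoter that drove either transgene or the species of the HIF1a sequence. In such bulk samples, fewer cells of a type and less RNA per cell cannot be told apart. In the unit used here, the log2 signal of a probe set, 1 unit is a 2-fold change.

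HIF1a is the oxygen-regulated subunit of a transcription factor that switches on genes for glycolysis, oxygen delivery and pH control when oxygen is scarce; with oxygen present, prolyl hydroxylation marks it for destruction by the Vhl ubiquitin ligase. It binds DNA together with Arnt at short elements whose core reads ACGTG or GCGTG. The genes described here belong to different families. Tmem255b and Tmem45a encode multipass membrane proteins with few studied functions, of which Tmem45a has been followed mainly in keratinocytes and in hypoxic tumour cells. Smtnl2 is related to smoothelin, an actin-associated protein of contractile smooth muscle. Rab26 is a small GTPase of secretory vesicles, Rcor2 a member of the CoREST corepressor family that holds the histone demethylase Kdm1a, and Serpinf1 the secreted serpin known as pigment epithelium-derived factor, which restrains blood vessel growth.

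Because these genes were higher together in the AdHIF1a wells, their promoters are shown first. RefSeq windows of 300 bases (rat GRCr8), running from 250 bases upstream of a gene's annotated start to 50 bases downstream, were at hand for 4 of the 6 genes. They lie at chr16:82808880-82809179 on the minus strand (Tmem255b), chr11:57182638-57182937 on the plus strand (Tmem45a), chr10:57528001-57528300 on the minus strand (Smtnl2) and chr10:60760849-60761148 on the minus strand (Serpinf1). The window of Tmem45a was matched by symbol, because the gene identifier that the platform pairs with its probe set had no entry in the reference table. Capitals mark GCGTG on either strand, so that CACGC is the same element read on the other strand.
Tmem255b: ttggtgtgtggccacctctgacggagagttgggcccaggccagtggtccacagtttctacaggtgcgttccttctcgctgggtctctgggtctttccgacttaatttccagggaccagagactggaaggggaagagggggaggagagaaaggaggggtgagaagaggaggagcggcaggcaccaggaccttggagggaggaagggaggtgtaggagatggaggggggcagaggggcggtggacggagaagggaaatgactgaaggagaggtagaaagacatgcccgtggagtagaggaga
Tmem45a: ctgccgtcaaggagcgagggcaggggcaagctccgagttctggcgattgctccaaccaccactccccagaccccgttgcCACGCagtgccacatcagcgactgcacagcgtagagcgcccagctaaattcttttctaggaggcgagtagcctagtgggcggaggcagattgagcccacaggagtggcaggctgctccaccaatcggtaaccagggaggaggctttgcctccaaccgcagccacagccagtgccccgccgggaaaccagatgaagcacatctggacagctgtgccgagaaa
Smtnl2: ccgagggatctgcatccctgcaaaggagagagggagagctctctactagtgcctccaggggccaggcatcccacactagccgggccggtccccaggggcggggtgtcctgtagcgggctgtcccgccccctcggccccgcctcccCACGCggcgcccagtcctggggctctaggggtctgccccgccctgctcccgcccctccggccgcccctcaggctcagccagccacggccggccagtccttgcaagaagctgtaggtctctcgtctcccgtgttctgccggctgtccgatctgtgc
Serpinf1: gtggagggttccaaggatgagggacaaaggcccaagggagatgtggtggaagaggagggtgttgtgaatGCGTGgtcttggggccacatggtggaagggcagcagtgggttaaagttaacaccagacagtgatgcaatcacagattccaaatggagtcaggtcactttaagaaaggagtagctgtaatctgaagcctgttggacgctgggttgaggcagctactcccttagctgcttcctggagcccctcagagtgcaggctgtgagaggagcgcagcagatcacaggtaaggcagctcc

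Both forms of the core element, ACGTG and GCGTG, were searched on both strands, and matches were counted whether or not they shared bases. GCGTG was present once each in the windows of Tmem45a, Smtnl2 and Serpinf1, or 3 of 4, against 29.7% of all 33469 rat promoter windows of this length. ACGTG was in 0 of 4, against 19.3% of all windows. Either form was thus in 3 of 4, against 41.6% of all windows. The first base of the match lay 171 bases upstream of the start in Tmem45a, 105 in Smtnl2 and 181 in Serpinf1. In the window of Tmem255b, the gene with the largest difference of the 4, neither form was found, as in the windows of Adm, Vegfa and Egln3, well-known HIF targets. Among 8 such reference targets with a window, 5 held ACGTG and 5 GCGTG, and among 6 relatives of the genes described here 0 held ACGTG and 4 held GCGTG. The windows also differed in CG dinucleotides, with 21 in Smtnl2, 16 in Tmem45a, 8 in Tmem255b and 3 in Serpinf1. Such matches describe the letters of these short windows and are not measured binding sites.

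Tmem255b, a membrane protein gene, gave the largest difference of the group. Its signals in the AdGFP wells of rats 1 to 4 were 6.36, 6.36, 5.15 and 5.93, and in the AdHIF1a wells 11.31, 11.31, 11.11 and 11.09. Every AdHIF1a well was far above every AdGFP well, with 4.73 log2 units between the closest wells. The group means were 5.95 ± 0.57 and 11.21 ± 0.12 (SD, 4 rats), and the within-rat difference was 5.26 ± 0.48 (SD, 4 rats), or 38.2-fold, with single rats between 30.9-fold and 62.2-fold. The AdHIF1a wells lay close together, and the spread of the difference came from the AdGFP side, where rat 3 was lowest. The 62.2-fold was that of rat 3, whose AdGFP signal of 5.15 was just above the median of its array (5.07). It ranked 3 of 18166 genes by mean difference, next after Stc1, a stanniocalcin (5.47).

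Tmem45a, the other membrane protein gene, came directly after it at rank 4. The AdGFP signals were 4.45, 5.26, 4.73 and 4.70 and the AdHIF1a signals 10.09, 9.73, 9.66 and 9.98 in rats 1 to 4. No wells overlapped, and the rat with the highest AdGFP signal, rat 2, had the smallest difference. Means of 4.79 ± 0.34 and 9.87 ± 0.20 (SD, 4 rats) gave a difference of 5.08 ± 0.50, or 33.8-fold, ranging from 22.2-fold to 49.9-fold between rats. The SD of the differences of Tmem255b and Tmem45a exceeded that of 95.3% and 95.9% of all genes. Their order was not settled, as Tmem255b had the larger difference in 2 of 4 rats.

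Rcor2, which scaffolds a repressor complex, ranked 16. Its AdGFP signals were 5.40, 5.44, 5.58 and 5.51, and its AdHIF1a signals 9.09, 8.89, 8.92 and 9.15. Both groups were tight, with means of 5.48 ± 0.08 and 9.01 ± 0.13 (SD, 4 rats), a difference of 3.53 ± 0.16 and a fold of 11.6. The second Rcor2 probe set (17623593) read 5.61 ± 0.24 and 8.62 ± 0.19, a difference of 3.01 ± 0.39 (SD, 4 rats). The 2 probe sets pointed the same way, with a smaller and more variable difference on the dimmer one, and averaging them gave 3.27.

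Serpinf1, the antiangiogenic serpin, followed at rank 17. It read 4.73, 4.36, 4.15 and 4.27 in the AdGFP wells and 8.21, 7.75, 7.59 and 8.03 in the AdHIF1a wells. All 4 AdGFP values were below the medians of the arrays (5.00 to 5.20), and the deposited table has no detection calls, so whether the starting signal stood above background is unknown and the fold is not an exact size. Means of 4.38 ± 0.25 and 7.90 ± 0.28 (SD, 4 rats) gave a difference of 3.52 ± 0.17, or 11.5-fold. The same limit applies to Tmem45a, whose AdGFP signals were below the array medians in 3 of 4 rats. Rcor2 and Serpinf1 differed by 0.01 in mean difference and exchanged order between rats.

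Smtnl2, the smoothelin relative, ranked 26. Its AdGFP wells read 7.06, 6.41, 6.35 and 6.67 and its AdHIF1a wells 10, 9.66, 9.51 and 9.86. The rats kept the same order under both viruses, with rat 1 highest and rat 3 lowest. Means of 6.62 ± 0.32 and 9.76 ± 0.22 (SD, 4 rats) gave a difference of 3.14 ± 0.14, or 8.78-fold. Pgf, placental growth factor, stood next above it (3.18) and Ndufb11b next below (2.97).

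Rab26, the vesicle GTPase, had the smallest and the most even difference of the 6. Its signals were 6.55, 6.46, 6.33 and 6.75 with AdGFP and 9.46, 9.30, 9.10 and 9.72 with AdHIF1a. Rat 4 was highest and rat 3 lowest under both viruses. Means of 6.52 ± 0.18 and 9.40 ± 0.26 (SD, 4 rats) gave a difference of 2.87 ± 0.09, or 7.32-fold, between 6.82-fold and 7.84-fold in single rats (rank 28). Only 11.2% of all genes had a smaller SD of their 4 differences. Ccl5, a chemokine gene just below it at 2.86, had an AdGFP SD of 0.94.

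**Figure D1:**
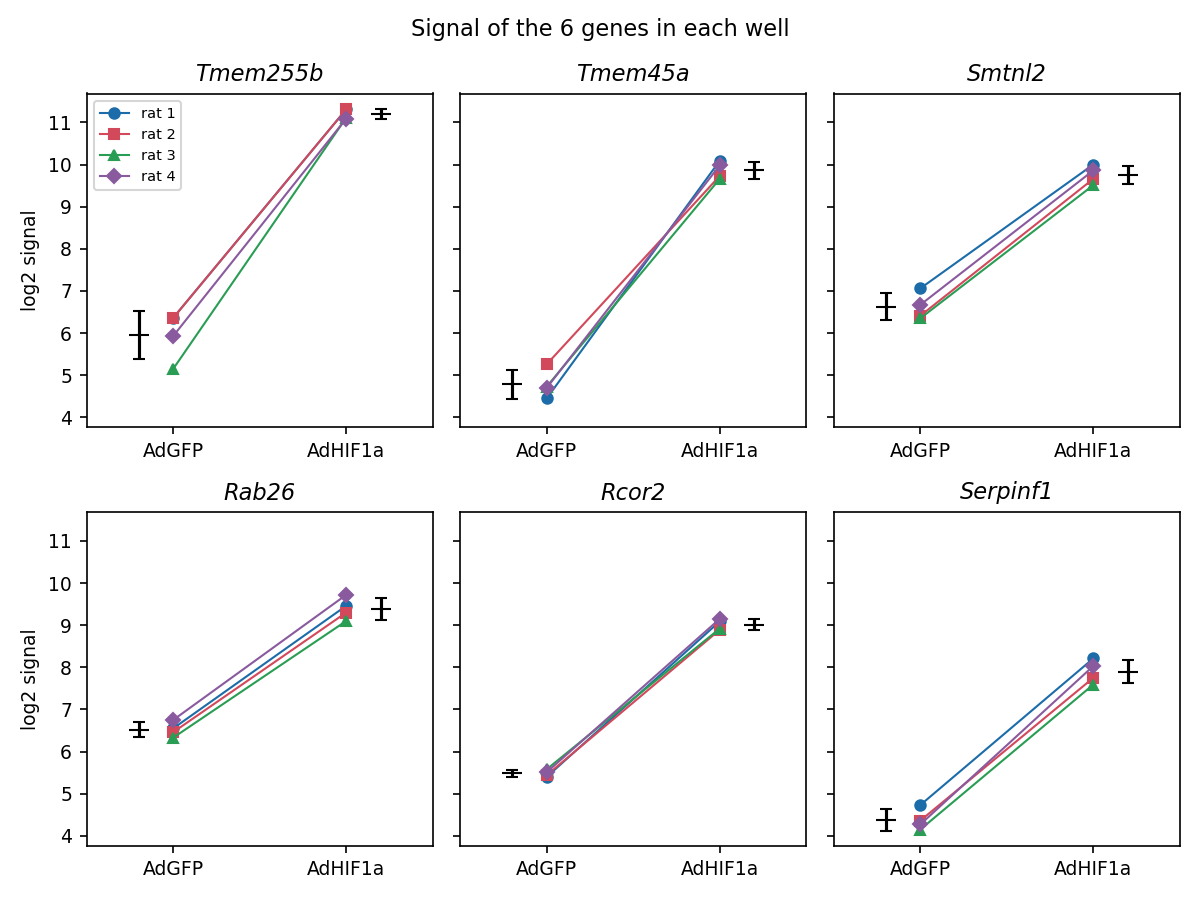
Log2 signal (y axis) of each of the 6 genes in the AdGFP and AdHIF1a wells (x axis), with 1 line per rat and, beside the points, the group mean with its SD over 4 rats. The AdHIF1a wells lie above the AdGFP wells for every gene, by 2.35 log2 units or more between the closest wells, and the AdGFP wells of Tmem255b spread from 5.15 to 6.36 (rats 1 and 2 coincide there).

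The groups did not overlap for any of the 6 genes, which their choice made likely; over all genes, 10.3% had every AdHIF1a well above every AdGFP well. The differences of Tmem255b and Tmem45a exceeded those of the other 4 genes in all 4 rats without overlap of the ranges. The order of the other 4 was less firm. Smtnl2 was below Serpinf1 in all 4 rats without overlap and Rab26 below Smtnl2 in 4 of 4 rats with overlapping ranges, but the starting signal of Serpinf1 may not be above background, and the place of Rcor2 depended on the probe set, since the mean of both probe sets put it below Smtnl2 in rat 3 (2.90 against 3.16) and level with it in rat 2. Leaving out any one rat moved the 6 mean differences little, from 5.02 to 5.36 for Tmem255b, 4.89 to 5.28 for Tmem45a, 3.48 to 3.59 for Rcor2, 3.44 to 3.56 for Serpinf1, 3.10 to 3.20 for Smtnl2 and 2.84 to 2.91 for Rab26.

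The 6 genes also varied together between rats in the AdHIF1a wells. In rat 1 all 6 were above their AdHIF1a group mean and in rat 3 all 6 were below it, with median deviations of 0.16 and -0.23. The median deviation over all genes was 0.012 and -0.002 in these wells. The 9 measured reference HIF targets, a list of familiar hypoxia-responsive genes, showed a like pattern, with 8 above their mean in rat 1 and 9 below it in rat 3 (median deviations 0.05 and -0.12), so it was not peculiar to the 6 genes. In the AdGFP wells fewer of the 6 shared a direction, with 4 of 6 above the mean in rat 1 and 1 of 6 in rat 3. Their median deviations there were of like size, 0.19 and -0.21. Of the reference targets, 8 were above their AdGFP mean in rat 1 and 6 below it in rat 3 (median deviations 0.19 and -0.08). The variation between rats was thus not confined to the AdHIF1a wells. The median difference over the 6 genes was 3.58, 3.42, 3.39 and 3.70 in rats 1 to 4, also higher in rats 1 and 4 than in the others.

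The starting signals were low to middling. In the AdGFP wells the signal exceeded that of 26.8% of all genes for Serpinf1, 33.2% for Tmem45a, 42.3% for Rcor2, 47.0% for Tmem255b, 51.9% for Rab26 and 52.8% for Smtnl2. In the AdHIF1a wells these shares were 66.4%, 90.2%, 80.9%, 97.7%, 85.6% and 89.3%. Tmem255b thus went from the middle of the distribution to rank 416 by signal. Probe sets differ in how brightly they report a transcript, so these ranks place signals and not amounts of RNA. Familiar HIF targets varied in starting signal and difference. Slc2a1, the glucose transporter, and Ndrg1 rose by 1.19 and 1.38 from AdGFP signals of 11.63 and 11.66 to 12.82 and 13.03, near the highest values of the table (adjusted p of 0.00296 and 0.0016 in limma). Adm, the adrenomedullin gene, rose by 4.09 from 7.39, and Car12, a carbonic anhydrase, by 5.94 from 4.73, a starting signal below all array medians, so that its fold is not an exact size either. All 9 reference HIF targets measured were higher, with a median difference of 1.52.

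**Figure D2:**
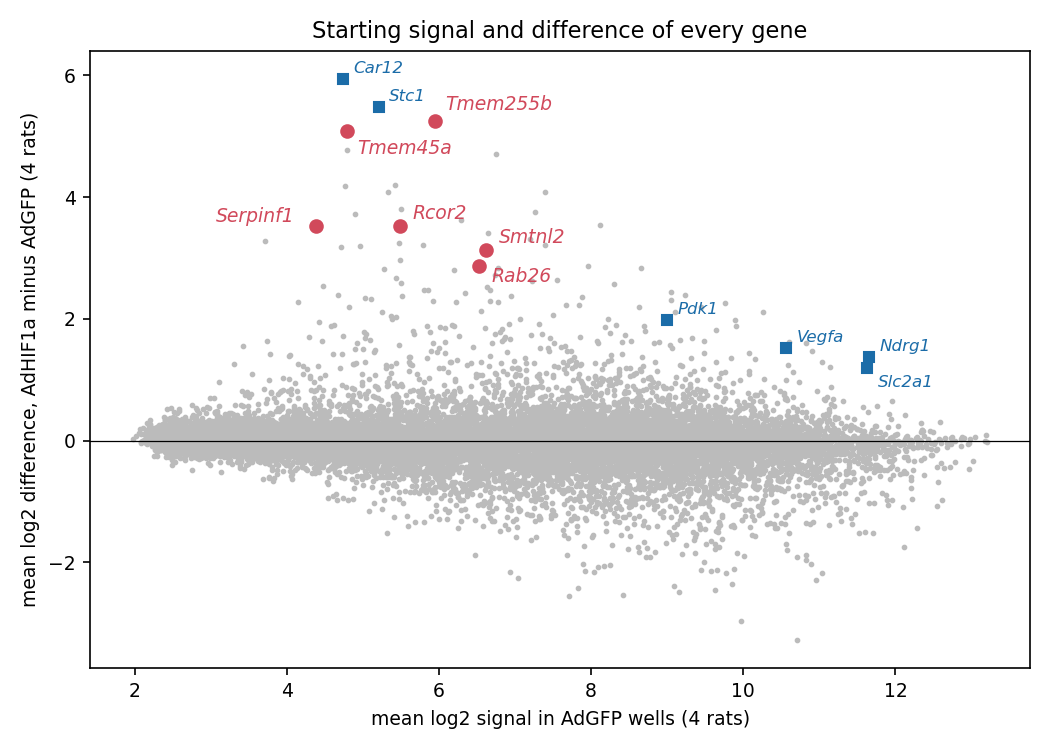
Mean log2 difference, AdHIF1a minus AdGFP (y axis), against mean log2 signal in the AdGFP wells (x axis) for 18166 genes in grey, each over 4 rats, with the 6 genes in red and 6 other HIF-responsive genes in blue. The 6 genes sit at AdGFP signals of 4.38 to 6.62 and differences of 2.87 to 5.26, to the left of Pdk1, Vegfa, Ndrg1 and Slc2a1.

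The genes most like each of the 6 over the 8 arrays were found by the root-mean-square distance between signals centred on each gene's own mean. Tmem255b was closest to Stc1 (0.32), then to Tmem45a (0.41) and Ascl2, a basic helix-loop-helix factor (0.45), and Tmem45a was closest to Ascl2 (0.32) and Stc1 (0.34). Rcor2 and Serpinf1 shared their nearest gene, Ndrg2, at 0.15 and 0.17, and both had Apln, the apelin peptide gene, among their nearest 3 (0.18 and 0.20). Stc2, another stanniocalcin, was the remaining neighbour of Rcor2 (0.17). Smtnl2 was closest to Vldlr, a lipoprotein receptor (0.16), Syce2 (0.20) and Serpinf1 (0.22). Rab26 was closest to Cox4i2, a cytochrome oxidase subunit isoform (0.18), Loxl2, a collagen cross-linking enzyme (0.19), and Vldlr (0.20). Signals were centred and not scaled, so a gene near in this measure is also near in the size of the difference between the viruses. The 6 genes were chosen for that difference, so the likeness is not independent of their choice.

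Relatives of the 6 genes were then examined, which the choice of the genes had not used. For all genes the comparison was a limma fit of AdHIF1a minus AdGFP with the rat as a block, and a gene counted as changed at a Benjamini-Hochberg adjusted p under 0.05. Such calls were made for 13.4% of all genes (5.68% higher and 7.77% lower), with a median of -0.005 for the differences of all genes. Without rat 2 the calls fell from 1032 to 315 higher and from 1411 to 246 lower, and without rat 4 to 324 and 301; without rat 3 they were 517 and 600, and without rat 1 there were 775 and 1231. Of 7 measured close relatives, 0 were higher, 1 was lower and 6 did not pass; at an unadjusted p under 0.05 in limma 1 was higher and 2 lower. The median difference of the 7 was 0.06 and the largest rise 0.37, that of Rcor1. The largest difference in size was a fall, that of Smtn. The 6 genes differed by 2.87 or more, but they had been chosen for large differences, so this contrast was fixed by the choice.

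Tmem255a, the only other member of its family, read 3.15, 3.19, 3.36 and 3.24 in the AdGFP wells and 3.11, 3.33, 3.26 and 3.47 in the AdHIF1a wells. The wells were interleaved at a signal below all array medians, with a difference of 0.06 (95% interval -0.18 to 0.30, limma adjusted p = 0.763), and the sign turned after median centring (-0.03). Tmem45b, the relative of Tmem45a, read 7.81, 5.80, 5.16 and 4.89 with AdGFP and 5.80, 5.06, 4.98 and 4.44 with AdHIF1a. It was lower in 4 of 4 rats, but the rats differed more than the viruses did, and the difference of -0.85 (-1.61 to -0.08) did not pass (limma adjusted p = 0.146). Without rat 1 it was -0.46. Tmem45a2, a further copy on the same chromosome, stayed between 2.34 and 2.69 in all wells, near the bottom of the scale (difference 0.13 ± 0.10 SE, limma adjusted p = 0.484).

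Smtn, the smoothelin gene itself, moved against Smtnl2. It read 8.16, 8.40, 7.86 and 8.36 in the AdGFP wells and 7.29, 7.51, 6.89 and 7.11 in the AdHIF1a wells. The groups did not overlap, and Smtn fell by 0.99 ± 0.10 (SE; 1.99-fold, limma adjusted p = 0.00526), a call kept when each rat in turn was left out. Smtnl1, the remaining family member, read between 4.79 and 5.45 and differed by 0.06 (-0.32 to 0.44, limma adjusted p = 0.843); its sign turned with quantile normalization (-0.01), with median centring (-0.02) and without rat 3 (-0.08).

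Rab37, the closest relative of Rab26, read 4.0 to 4.18 with AdGFP and 4.03 to 4.35 with AdHIF1a, a difference of 0.13 (-0.12 to 0.38, limma adjusted p = 0.477). Rcor1, the most widely used CoREST protein, read 8.50, 8.74, 8.62 and 8.47 against 9.08, 9.04, 8.90 and 8.80. No wells overlapped, and the difference of 0.37 (0.14 to 0.61) lay just outside the threshold (limma adjusted p = 0.0569), which it passed under 5 of the alternatives (0.0235 to 0.0486). Serpinf2, which encodes antiplasmin and lies beside Serpinf1 in the genome, read 4.73 to 4.94 against 4.74 to 5.29, a difference of 0.16 (-0.14 to 0.45, limma adjusted p = 0.469). Rcor3 was not analysed here.

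**Figure D3:**
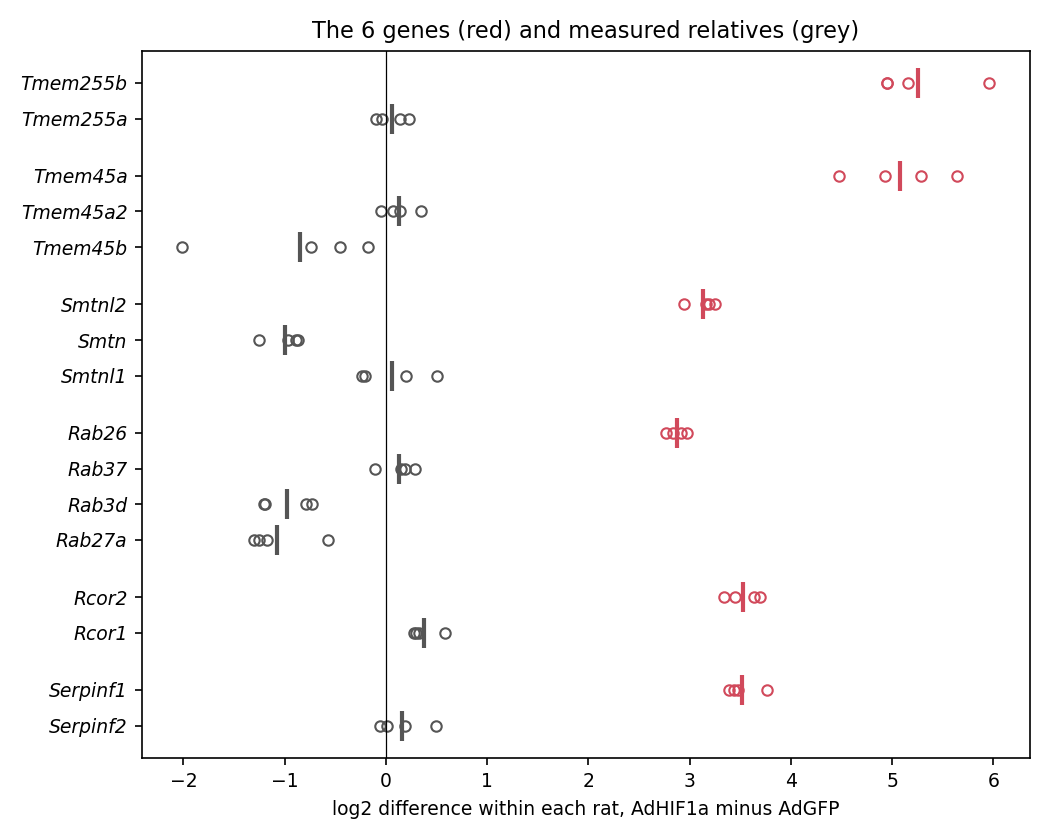
Log2 difference within each rat (x axis; circles, 4 rats) and its mean (vertical mark) for the 6 genes in red, each followed by relatives in grey. Rab3d and Rab27a are not close relatives of Rab26. They are secretory GTPases with lower calls, from a list of 19 with 4 lower, 1 higher and 14 not past the threshold. The red differences, for which these genes were chosen, are all 2.77 or more. The means of the grey genes lie between -1.07 for Rab27a and 0.37 for Rcor1.

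Rab26 was set against the other GTPases that carry secretory granules and recycling vesicles. Of 19 measured, 1 was higher, 4 lower and 14 did not pass (26.3% called), with a median difference of -0.12. Rab27a, which docks granules at the plasma membrane, read 9.48 to 9.69 with AdGFP and 8.23 to 8.91 with AdHIF1a and fell by 1.07 ± 0.15 (SE; 2.10-fold, limma adjusted p = 0.0113). Rab3d, a GTPase of regulated secretion, read 9.35 to 9.72 against 8.51 to 8.62 and fell by 0.98 ± 0.12 (1.97-fold, limma adjusted p = 0.00855). Rab17, of epithelial recycling endosomes, fell by 1.08 ± 0.13 and Rab11a, the general recycling GTPase, by 0.59 ± 0.10. The gene that was higher was Rab3b (0.47 ± 0.09, limma adjusted p = 0.0312), a neuronal and endocrine form chosen for mention after its value was seen. Rab20, another GTPase of this list, differed by 0.02 ± 0.10. The 4 lower calls were all lost without rat 2 (limma adjusted p of 0.0507 for Rab17, 0.0526 for Rab3d, 0.0652 for Rab27a and 0.0964 for Rab11a), and counts of lower genes were 4, 0, 2 and 1 without rats 1 to 4. That of Rab3b was lost when any single rat was left out (0.0679 to 0.145), without the rat as a block (0.197), with quantile normalization (0.0817) and after median centring (0.116).

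Genes of granule exocytosis, among them the effectors that Rab27 and Rab3 proteins bind, were also mostly lower where they changed. Of 22 measured, 7 were lower, 1 was higher and 14 did not pass (36.4% called), with a median of -0.30. Syt7, a slow calcium sensor of exocytosis, fell by 1.0 ± 0.13 (SE, limma adjusted p = 0.00887), and the Rab27 effector genes Exph5 and Sytl2 fell by 0.89 ± 0.10 and 0.67 ± 0.09. Vamp8, a granule SNARE, Unc13d, which primes Rab27 granules, and Sytl4 and Sytl1 were the other lower genes (-0.62, -0.62, -0.68 and -0.46). Unc13b, a relative of Unc13d, rose by 0.72 ± 0.10 (limma adjusted p = 0.0115). Rims1, an effector that has been paired with Rab26, was at 4.57 and 4.58 in the group means, below all array medians, and differed by 0.02 ± 0.11, and Bhlha15, the secretory cell factor known to drive Rab26 in gland cells, by -0.38 ± 0.13 (adjusted p = 0.124). Without rats 1 to 4 the count of lower genes was 6, 1, 5 and 1, and without rat 2 or 4 the calls of Syt7 (0.0559 and 0.0517) and Sytl2 (0.0717 and 0.0697) were lost, as were those of Vamp8 (0.0741 and 0.0712) and Unc13d (0.0869 and 0.0812). Sytl4 was lost without rat 2, 3 or 4 (0.087, 0.0879 and 0.0895), Sytl1 when any single rat was left out (0.0688 to 0.148), and Unc13b without rat 3 or 4 (0.0514 and 0.0702).

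Rcor2 was set against the other parts of the CoREST complex and the factors that recruit it. Of 15 measured, 5 were higher, 1 lower and 9 did not pass (40.0% called), with a median of -0.07. Kdm1a, the demethylase held by CoREST proteins, read 9.75, 9.82, 9.88 and 9.86 against 10.33, 10.34, 10.23 and 10.41 and rose by 0.50 ± 0.09 (SE; 1.41-fold, limma adjusted p = 0.0207). Rest, the repressor of neuronal genes that brings CoREST to DNA, read 8.93 to 9.07 against 9.63 to 9.92 and rose by 0.71 ± 0.09 (1.64-fold, limma adjusted p = 0.00906). Snai1, a zinc finger repressor that also recruits the complex, rose by 0.84 ± 0.10 from a low signal of 4.32, Gse1 by 0.51 ± 0.11 and Rreb1 by 0.45 ± 0.09, while Zmym3 fell by 0.59 ± 0.11. The deacetylases Hdac1 and Hdac2 did not pass (-0.24 ± 0.12 and -0.13 ± 0.09). Counts of higher genes were 3, 0, 2 and 1 without rats 1 to 4, with Rest at 0.0567 without rat 2 and 0.0574 without rat 4, and Snai1 at 0.0572 without rat 2; Kdm1a and Rreb1 were lost when any single rat was left out and after median centring (0.0854 and 0.121), Zmym3 when any single rat was left out (0.0608 to 0.129), and Gse1 without rat 2, 3 or 4 (0.161, 0.111 and 0.156) and after median centring (0.0567).

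Neuronal genes that REST and CoREST are known to hold silent were mostly at low signal under both viruses. Of 22 measured, 1 was higher, 1 lower and 20 did not pass (9.09% called), with a median of -0.03, and 13 were below the median of every array. Scn3b, a sodium channel subunit, fell by 2.26 ± 0.23 (SE, limma adjusted p = 0.00526) from 7.04 to 4.78, with every AdHIF1a well below the array medians. Syn1, a synaptic vesicle protein gene, rose by 0.42 ± 0.09 (limma adjusted p = 0.038) from 4.83, a call lost when any single rat was left out and under quantile normalization (0.0799), median centring (0.141) or the trended prior (0.0589). Without rat 1, 2 genes of the list were lower. The difference between these genes and all others was not tested.

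Smtnl2 was set against genes of the smooth muscle contractile apparatus and of the calponin homology family. Of 17 measured, 5 were lower, 0 higher and 12 did not pass (29.4% called), with a median of -0.38; at an unadjusted p under 0.05 in limma 9 were lower and 0 higher. Besides Smtn these were Tagln, an actin-binding protein (-2.35 ± 0.23 SE, limma adjusted p = 0.00484), the tropomyosin gene Tpm1 (-0.87 ± 0.14, 0.0158), the calponin gene Cnn3 (-0.89 ± 0.15, 0.0205) and Tpm2 (-0.46 ± 0.09, 0.0271), whose signal was below all array medians. Ppp1r12a, a subunit of myosin phosphatase, differed by 0.06 ± 0.09. Acta2, Cnn1 and Cnn2 of this list were not analysed here. Lower counts without rats 1 to 4 were 3, 2, 5 and 2, with Tpm1 at 0.0617 without rat 2 and 0.0812 without rat 4 and Cnn3 at 0.0573, 0.101 and 0.0941 without rats 1, 2 and 4; Tpm2 was lost when any single rat was left out (0.051 to 0.139). The falls of Tagln and of Scn3b were already known when the lists were drawn up, so they are not independent evidence of a direction.

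**Figure D4:**
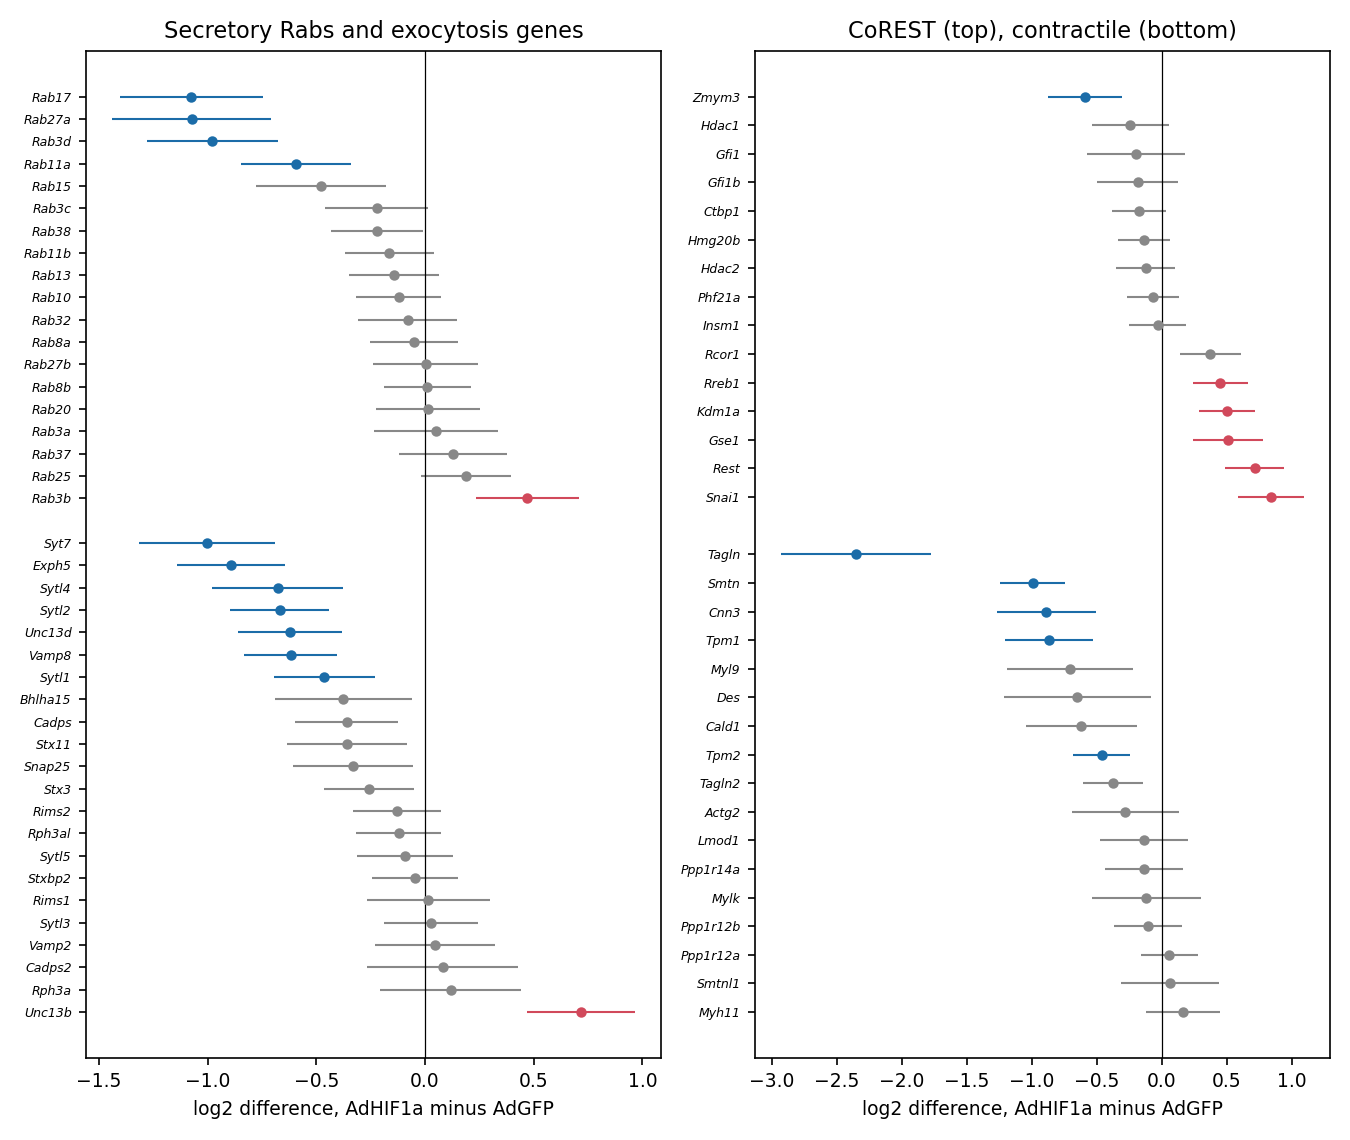
Log2 difference, AdHIF1a minus AdGFP, with its 95% confidence interval (x axis, limma with the rat as a block, 4 rats) for secretory Rab GTPases and exocytosis genes (left) and for CoREST and contractile genes (right), with higher calls in red, lower calls in blue and the others in grey. Rab17, Rab27a and Rab3d lie near -1 and Rest and Snai1 above 0.7. Rab26 and Rcor2, which were chosen for their differences (2.87 and 3.53), are not drawn.

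Serpinf1 was set against other serpins and against its receptors. Of 17 measured serpins, 4 were lower, 0 higher and 13 did not pass (23.5% called), with a median of -0.05; at an unadjusted p under 0.05 in limma 5 were lower and 1 higher. Serpinb8, an intracellular protease inhibitor, fell by 1.75 ± 0.14 (SE, 3.35-fold, limma adjusted p = 0.00329), Serpine2, which inhibits thrombin and urokinase, by 1.06 ± 0.23 (0.0369), Serpinb9, the granzyme B inhibitor, by 0.68 ± 0.10 (0.012), and Serpinb1a, the neutrophil elastase inhibitor, by 0.67 ± 0.09 (0.0105). Serpinh1, the collagen chaperone, differed by -0.24 ± 0.11 and Serpina3n by 0.45 ± 0.11, neither past the threshold (adjusted p of 0.251 and 0.0509). Lower counts without rats 1 to 4 were 3, 1, 2 and 2, with Serpinb8 called throughout, Serpine2 lost without rat 1, 2 or 3 (0.0608, 0.117 and 0.0966), Serpinb1a without rat 2 or 4 (0.0688 and 0.0532) and Serpinb9 without rat 2, 3 or 4 (0.058, 0.0522 and 0.0637) and without the rat as a block (0.11).

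Of 5 measured receptors and binding partners of the Serpinf1 protein, 2 were lower, 0 higher and 3 did not pass, with 2 lower and 0 higher at an unadjusted p under 0.05 in limma. Pnpla2, the triglyceride lipase that also binds this serpin, read 10.87 to 11.06 with AdGFP and 10.21 to 10.51 with AdHIF1a and fell by 0.63 ± 0.09 (SE; 1.55-fold, limma adjusted p = 0.0127). Plxdc2, a membrane receptor of the serpin, fell by 0.56 ± 0.09 (adjusted p = 0.0176), and its relative Plxdc1 differed by 0.10 ± 0.13 at a signal below all array medians. Lrp6, the Wnt co-receptor, differed by -0.05 ± 0.10 and the laminin receptor Rpsa by -0.10 ± 0.10. Both calls were lost without rat 2 (0.0669 and 0.0955) or rat 4 (0.072 and 0.0969).

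Genes lying next to the 6 on their chromosomes were examined too, a set added after the values had been seen. The 2 nearest measured genes on each side made 24 flanking genes, of which 2 were higher, 2 lower and 20 did not pass (16.7% called, against 13.4% of all genes), with a median difference of 0.01. None differed by more than 0.97 in size. Adgrg7, an adhesion receptor gene near Tmem45a, rose by 0.97 ± 0.11 (SE, limma adjusted p = 0.00653) from a very low signal of 3.11, and Wdr81, near Serpinf1, by 0.47 ± 0.09 (adjusted p = 0.0304). Gas6, the ligand of the TAM receptors beside Tmem255b, fell by 0.51 ± 0.10 (adjusted p = 0.0271) and Tekt1, a cilium gene beside Smtnl2, by 0.81 ± 0.10 (adjusted p = 0.00831). The calls of Wdr81 and Gas6 were lost when any single rat was left out, that of Wdr81 also after median centring (0.0866) and that of Gas6 without the rat as a block (0.131), and that of Tekt1 without rat 2 or 4 (0.0579 and 0.0543). With the rat as a block, no flanking gene of Rab26 or Rcor2 was called, and in limma 1 of these 8, Mark2, had an unadjusted p under 0.05 (0.0118). It lies beside Rcor2 and differed by 0.39 ± 0.11 (adjusted p = 0.0714). Without the block the flanking genes had 4 higher calls in place of 2. Which genes gained a call was not examined, so the absence of a call near Rab26 and Rcor2 is stated for the blocked fit only.

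Several of the 6 genes are also expressed by cell types other than ATII cells, so markers of such cells were read in the same wells. Fibroblast markers, relevant to Serpinf1, had 0 of 8 called and 0 of 8 at an unadjusted p under 0.05 in limma; their mean signal ran from 4.51 to 4.63 in the AdGFP wells and from 4.42 to 4.62 in the AdHIF1a wells, and Lum, Pdgfra and Postn were below all array medians. Of 5 smooth muscle and pericyte markers, relevant to Smtnl2, 0 were higher and 1, Rgs5, was lower (-1.38 ± 0.13 SE, limma adjusted p = 0.00462), with 0 higher and 2 lower at an unadjusted p under 0.05, and mean signals of 5.32 to 5.77 against 5.08 to 5.33. Acta2 and Cnn1, main smooth muscle markers of this list, were not analysed here. Neuroendocrine markers, relevant to Rab26 and Rcor2, had 0 of 5 called and 0 of 5 at an unadjusted p under 0.05 in limma, at mean signals of 5.39 to 5.52 against 5.32 to 5.59. Endothelial markers had 0 of 4 called in limma (0 at an unadjusted p under 0.05, 4.41 to 4.61 against 4.58 to 4.70) and macrophage markers 0 of 8 (1 higher and 3 lower at an unadjusted p under 0.05, 7.70 to 8.30 against 7.19 to 8.23). Of 5 club and ciliated cell markers, Tekt1 and Ccdc39 were lower (mean signals 6.53 to 6.77 against 6.22 to 6.50). Of 6 alveolar type I markers 5 were lower, namely Pdpn, Aqp5, Ager, Hopx and Clic5, at mean signals of 9.68 to 10.30 against 8.48 to 9.20. Of 9 ATII markers, the surfactant protein genes Sftpa1 and Sftpb were higher and Napsa, Lamp3 and Nkx2-1 lower, 0 were below all array medians, and they averaged 10.20 to 10.67 against 10 to 10.46. Without rat 2 the lower counts became 0 for club and ciliated and 0 for type I markers and 1 for ATII markers, without rat 4 they were 0, 2 and 1, without rat 3 they were 1, 3 and 1, and without rat 1 they were 1, 3 and 2; without rat 3, 2 smooth muscle and pericyte markers were lower, and without rat 2, 3 or 4, 1 ATII marker was higher. At an unadjusted p under 0.05 in limma with all rats, 3 of the 9 ATII markers were higher and 5 lower. By the same measure 0 type I markers were higher and 6 lower, and 0 club and ciliated cell markers were higher and 2 lower. The part of these marker differences in the signals of the 6 genes was not tested.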

How the data were processed

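Total RNA was measured on 1 Affymetrix array per well. Per the submitters' processing notes, the authors made the deposited log2 signals with Affymetrix Expression Console. Not given in the sources used here were its version, the summarization method and the build. A log2 unit was inferred from the range (1.42 to 13.57). Array upper quartiles were close, at 7.62 to 7.64 with AdGFP and 7.65 to 7.68 with AdHIF1a. Array medians spread more, from 5.00 to 5.13 with AdGFP and from 5.02 to 5.20 with AdHIF1a. Median centring, which removes that offset, lowered the higher calls from 1032 to 635. The number of arrays limits the precision.

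Of 36685 probe sets, 18511 had 1 gene symbol, 575 several and 17599 none. The brightest probe set over 8 arrays stood for a gene, leaving 18166. limma 3.58.1 in R 4.3.3 (lmFit, eBayes) was fitted to all probe sets with the rat as a fixed block, without a filter on dim probe sets; p-values are two-sided and adjusted over the 18166 genes. Pairing comes from the series' design: deviations of wells of 1 rat correlated at 0.18 to 0.27 across genes, and of different rats at -0.22 to 0.08. On simulated data for this comparison (18166 genes, 50 changed per size), 84% of changes of 1 log2 unit and 14% of changes of 0.5 were called. Only 200 genes were changed there, while 2443 were called in the data. Fewer changed genes make the adjusted threshold stricter, so these shares may be too low for the real comparison.

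The 6 genes and the lists (9 of relatives and partners, 8 of cell types) were chosen with earlier results of these data known. Genes named by rule were the 6, all measured close relatives, up to 4 called genes and the largest difference per list (with no call, the 2 smallest p), the 3 nearest patterns and the neighbours in rank; others were chosen after their values were seen, and cell type lists are given mainly as counts. Gene identifiers of 18394 singly named probe sets matched GRCr8, as did those of 5 of the 6 genes. Alternatives were no block, quantile normalization, median centring, a filter at the median of the probe sets (5.09), a trended and robust prior, the mean of a gene's probe sets, omission of each rat and, added after seeing the data, a prior from the named genes.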

Additional observations from a re-analysis of the deposited data

How the results depend on the processing

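The differences of the 6 genes kept their direction under every alternative run, and moved by more than the SD between rats only for Rcor2 with the mean of its probe sets (3.27). They were the same with no replicate block, with the filter on dim probe sets and with either other prior, because these settings cannot change a mean difference. Tmem45a and Serpinf1, with AdGFP means of 4.79 and 4.38, passed that filter (5.09) through their AdHIF1a wells. The mean of a gene's probe sets could move only Rcor2. The genes had also been chosen for these differences, so the kept direction is not independent evidence. Removing the block, which the design supports, changed the calls of 4 of 69 genes named by rule or called beside the 6 (Rcor1, Serpinb9, Gas6 and Sftpb). Among other genes in the text, at least the calls of Rab3b and Serpina3n changed. The flanking genes went from 2 to 4 higher calls, and the added ones were not followed up singly. Over all genes, 1032 higher calls became 635 with median centring and 1576 with the variance prior from the named genes, and counts without single rats ran from 315 to 775 higher and from 246 to 1231 lower. Fits on 3 rats have fewer samples, and for other changed counts the cause was not tested.

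Counts per list moved, in several lists by most of their calls when 1 rat was left out. With no replicate block the higher counts were 1 for close relatives, 0 for secretory Rabs, 1 for serpins, 1 for ATII markers and 4 for flanking genes, and the lower counts 2 for neuronal genes and 1 for flanking genes. With quantile normalization they were 1 higher for relatives, 0 higher for secretory Rabs and neuronal genes, and 2 lower for macrophage markers. With median centring they were 0 higher for secretory Rabs and neuronal genes, 2 higher for CoREST, 1 higher for flanking genes and 1 lower for macrophage markers. The filter on dim probe sets gave 1 higher for relatives and serpins, 0 higher and 2 lower for neuronal genes, 5 lower for ATII and 2 lower for macrophage markers. The trended prior gave 1 higher for relatives and macrophage markers, 0 higher and 2 lower for neuronal genes, 5 lower for ATII and 1 lower for macrophage markers. The prior from the named genes gave 1 higher for relatives and serpins, 4 higher for flanking genes, and 2, 8, 5 and 2 lower for neuronal, contractile, ATII and macrophage genes.

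Without single rats, lower counts ran from 0 to 4 for secretory Rabs, 1 to 6 for exocytosis genes, 0 to 0 for CoREST, 1 to 2 for neuronal genes, 2 to 5 for contractile genes, 1 to 3 for serpins, 0 to 2 for Serpinf1 receptors, 0 to 3 for type I, 1 to 2 for ATII, 0 to 1 for ciliated, 1 to 2 for smooth muscle markers and 0 to 1 for flanking genes. Higher counts ran from 0 to 3 for CoREST, 0 to 1 for exocytosis genes, 0 to 0 for secretory Rabs and neuronal genes, 1 to 2 for ATII markers, 1 to 2 for flanking genes and 8 to 9 for the 9 reference HIF targets. The sign turned for Smtnl1 with quantile normalization (-0.0131), median centring (-0.02) and without rat 3 (range without single rats -0.0833 to 0.1633), for Tmem255a with median centring (-0.025) and for the neuroendocrine marker Chga without rat 2 (range -0.02 to 0.2333), none of them called. With ACGTG alone, 0 of the 4 promoter windows held a match. Low starting signals limit the folds of Tmem45a, Serpinf1 and Car12.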
